A study of Mus musculus with 18 samples.

Results

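The genes described here encode molecular chaperones: the heat shock proteins, the J proteins that work with them, the chaperonins and a few of their co-factors. They were measured in the brains of Aldh5a1-/- mice (KO) and wild-type mice (WT). The missing gene, Aldh5a1, codes for succinate semialdehyde dehydrogenase, a mitochondrial enzyme of GABA breakdown. Hippocampus, cerebellum and cortex came from 3 KO animals (numbers 3363, 3389 and 3403) and 3 WT animals (3405, 3406 and 3396). Each piece of tissue was read on an Affymetrix expression array of its own, 18 arrays in all, with 3 for each genotype and region. The labels name no other allele, treatment, strain or age. Members were chosen by symbol alone, whatever their values: every probe set whose only annotated symbol starts with Hsp, Dnaj or Cct and a digit, or is Tcp1, Hsf1, Hsf2, Stip1 or Ppp5c, with Hspg2 left out. This gave 82 probe sets of 59 genes, among 8252 genes with a probe set of their own.

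Chaperones bind proteins that are not fully folded, keep them from clumping and help them reach their working shape. Hsp70 proteins do so in cycles of ATP use that J proteins start and that Hsp110 proteins and other exchange factors reset, and they pass some clients on to Hsp90. The CCT chaperonin is a barrel that folds actin and tubulin in the cytosol, and Hsp60 with its lid Hsp10 does similar work in mitochondria. Many of these genes are switched on when unfolded proteins accumulate, by the heat shock factors in the cytosol and by the unfolded protein response in the endoplasmic reticulum (ER). Neurons, which live long and keep long processes, rely on them throughout life.

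By role, the 82 probe sets held 37 of 27 J protein genes, 15 of 11 Hsp70 and Hsp110 genes, 14 of 9 CCT genes, 6 of 4 small heat shock protein genes, 3 of 2 Hsp90 genes, 3 of the 2 mitochondrial chaperonin genes, 3 of the co-factor genes Stip1, Ppp5c and Hspbp1, and 1 of the regulator Hsf2. No probe set was annotated to Hsf1 or Hsp90ab1 alone. A filter on dim values kept 69 probe sets of 56 genes, among 8370 probe sets tested. The 13 probe sets that did not pass included the only ones of Dnajb8, Hsf2 and Hspb1. The Hsf2 probe set ranged from 2.39 to 18.4 in signal, the scaled intensity of the deposited table, and lay under the floor of 9.50 on 15 of 18 arrays. The Hspb1 probe set ranged from 5.36 to 17.4. All values of the 69 kept probe sets lay above that floor. A probe set's signal depends on its own probes, so signals are compared only within a probe set.

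The rules that switch these genes on are written partly in their promoters, and 6 promoters are shown because they hold one of the 2 elements that define the families' stress responses. Windows of 300 bases, 250 before and 50 after the annotated start, came from RefSeq (GRCm38.p6), which had 65 windows for 51 of the member genes among 32851 windows in all. A heat shock element of 3 units, spelled GAANNTTCNNGAA or, on the other strand, TTCNNGAANNTTC, was found in 6 member windows (9.23%), those of Dnajb6, Hspd1, Hspe1 and Hsph1, and in 0.603% of all windows. Hspd1 and Hspe1 are read in opposite directions from 1 shared promoter: their windows have 285 bases in common, so that the Hspe1 window stands for both. Dnajb6 and Hsph1 each have 2 overlapping windows that hold the same match. Overlapping windows were counted separately, among the members and over all windows, so the percentages here are shares of windows and not of separate sites. An ER stress element, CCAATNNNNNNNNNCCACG or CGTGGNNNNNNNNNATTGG, was found in 3 member windows (4.62%), those of Hspa5, Hsp90b1 and Dnajc3, and in 0.119% of all windows. Shorter 2-unit elements contained in the longer one were more common: GAANNTTC lay in 18.5% of member windows and 7.86% of all, and TTCNNGAA in 15.4% and 8.52%. A match is a description of letters and not of a bound site. The element is in capitals in each sequence, written 5′ to 3′ on the strand of the gene.
Hspe1, chr1:55087898-55088197, plus strand, with 2 overlapping matches 71 to 89 bases before the start: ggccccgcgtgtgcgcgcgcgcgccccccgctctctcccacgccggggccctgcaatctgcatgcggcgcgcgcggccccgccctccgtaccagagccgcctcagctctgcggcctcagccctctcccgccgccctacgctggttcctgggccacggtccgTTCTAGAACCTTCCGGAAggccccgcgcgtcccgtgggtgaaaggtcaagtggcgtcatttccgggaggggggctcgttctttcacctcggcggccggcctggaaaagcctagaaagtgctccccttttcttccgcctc
Hsph1, chr5:149636266-149636565, minus strand, with the match 15 to 28 bases after this annotated start: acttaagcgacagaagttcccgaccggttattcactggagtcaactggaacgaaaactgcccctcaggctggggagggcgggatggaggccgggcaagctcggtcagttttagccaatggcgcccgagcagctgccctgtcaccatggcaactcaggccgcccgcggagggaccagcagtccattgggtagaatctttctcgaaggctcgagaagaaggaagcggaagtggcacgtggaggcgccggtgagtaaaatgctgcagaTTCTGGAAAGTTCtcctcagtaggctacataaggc
Dnajb6, chr5:29735648-29735947, plus strand, with the match 33 to 46 bases before the start: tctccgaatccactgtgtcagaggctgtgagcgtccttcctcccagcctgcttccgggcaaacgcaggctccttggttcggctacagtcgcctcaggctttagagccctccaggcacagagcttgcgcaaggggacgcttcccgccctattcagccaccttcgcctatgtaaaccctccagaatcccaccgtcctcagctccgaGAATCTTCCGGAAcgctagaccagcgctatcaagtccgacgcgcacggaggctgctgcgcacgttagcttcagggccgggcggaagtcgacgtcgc
Hspa5, chr2:34771840-34772139, plus strand, with the match 46 to 65 bases before the start: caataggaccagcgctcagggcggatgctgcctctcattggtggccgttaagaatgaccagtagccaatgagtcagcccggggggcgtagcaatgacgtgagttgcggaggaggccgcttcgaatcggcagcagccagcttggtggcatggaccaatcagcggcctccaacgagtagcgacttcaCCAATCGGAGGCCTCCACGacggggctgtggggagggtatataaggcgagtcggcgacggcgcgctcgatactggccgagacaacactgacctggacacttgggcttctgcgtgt
Hsp90b1, chr10:86705395-86705694, minus strand, with 2 matches between 88 and 212 bases before the start: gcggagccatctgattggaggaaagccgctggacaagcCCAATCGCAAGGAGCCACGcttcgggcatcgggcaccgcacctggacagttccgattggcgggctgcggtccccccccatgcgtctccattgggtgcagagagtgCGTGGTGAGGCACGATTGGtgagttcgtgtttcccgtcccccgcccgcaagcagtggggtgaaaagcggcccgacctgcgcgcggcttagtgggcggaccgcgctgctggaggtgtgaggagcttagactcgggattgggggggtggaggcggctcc
Dnajc3, chr14:118937682-118937981, plus strand, with the match 86 to 105 bases before the start: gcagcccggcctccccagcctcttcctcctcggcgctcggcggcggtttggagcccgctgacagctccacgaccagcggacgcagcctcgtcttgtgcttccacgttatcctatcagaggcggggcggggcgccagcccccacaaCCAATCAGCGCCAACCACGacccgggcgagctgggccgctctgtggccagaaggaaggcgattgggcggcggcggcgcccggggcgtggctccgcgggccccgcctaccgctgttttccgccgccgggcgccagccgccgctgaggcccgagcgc

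Titles and descriptions gave each array its region, since every source label says hippocampus. On 18 of 18 arrays the profile lay nearest to the other arrays of that region. Cerebellar markers summed to 17762 to 18964 on the cerebellar arrays and 1138 to 1695 on the others, and forebrain neuron markers to 14.6 to 34.2 on the cerebellar arrays and 1780 to 2957 on the others. Arrays of the same group had correlations (Pearson r) between 0.955 and 0.976 over the probe sets, which do not vary independently. No probe set was annotated to Aldh5a1, so the genotype rests on the labels. Markers of oligodendrocytes, the myelin-forming cells, differed between the genotypes: 4 of 14 kept probe sets fell in KO hippocampus and 9 of 14 in KO cortex, against 0 of 14 in KO cerebellum. The summed signal of the 9 marker genes on the array was 4228 to 5419 in KO hippocampi against 6451 to 9952 in WT hippocampi, and 3541 to 4507 in KO cortices against 6906 to 8940 in WT cortices. Of these genes only Cnp averaged under the floor, in WT hippocampus, KO cortex and the cerebellum of both genotypes. No probe set of the other marker lists (neurons, astrocytes, microglia, endothelium, choroid plexus, ependyma, striatum, red blood cells) passed between KO and WT. In bulk tissue, fewer cells of a type and less RNA per cell cannot be told apart.

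In WT brain, cerebellum stood apart from cortex and hippocampus in a mixed way: some chaperone genes were higher there and others lower. In an F test by limma that compared regions within animals, 25 of the 69 member probe sets (36.2%) passed an adjusted p of 0.05 over the 3 WT regions, against 46.6% of all probe sets tested. The members' share was thus below the background. Without WT animal 3406 the members' count was 15 (21.7%), and the share of all probe sets was 32.4%. Between WT cerebellum and WT cortex 11 member probe sets were higher in cerebellum (15.9%; background 19.2%) and 17 lower (24.6%; background 24.1%). Between WT cerebellum and WT hippocampus 5 were higher in cerebellum (7.25%; background 14.8%) and 10 lower (14.5%; background 16.4%). Between WT hippocampus and WT cortex 4 were higher in hippocampus (5.80%; background 7.49%) and 3 lower (4.35%; background 6.93%).

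Among the Hsp70 genes, Hspa2, known in mice for its need in sperm formation, had the lowest p for the WT regions. Its signal was 62.1, 62.8 and 49.4 in the WT cerebella, against 174, 182 and 222 in the WT hippocampi and 91.8, 88.4 and 102 in the WT cortices. The 3 regions did not overlap: hippocampus was highest and cerebellum lowest. WT cerebellum was 3.32-fold lower than WT hippocampus (log2 difference -1.73 ± 0.19, limma's standard error; adjusted p = 7.42e-06) and 1.62-fold lower than WT cortex (log2 difference -0.70 ± 0.19; adjusted p = 0.0101). In the KO, the Hspa2 signal was 258, 153 and 148 in hippocampus, 78.9, 90.7 and 54.6 in cerebellum and 190, 108 and 85.6 in cortex. The order of the regional means was the same, but in the KO cortical values overlapped both hippocampal and cerebellar ones, with animal 3363 highest in hippocampus and cortex.

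Hsph1, the Hsp110 protein that resets Hsp70, read 754, 690 and 435 in the WT cerebella, against 1237, 1281 and 1140 in the WT cortices and 1020, 1379 and 1024 in the WT hippocampi. All 3 cerebellar values lay under all values of the other 2 regions, which overlapped each other. The log2 difference was -0.999 ± 0.13 from WT cortex (adjusted p = 2.46e-05) and -0.89 ± 0.13 from WT hippocampus (adjusted p = 8.41e-05). Hspa8, the constitutive cytosolic Hsp70, was also lower in WT cerebellum than in WT cortex, with a log2 difference of -0.35 ± 0.10 (adjusted p = 0.0127). Its means were 1807 ± 181 in WT cerebellum, 2304 ± 221 in WT cortex and 2112 ± 40.4 in WT hippocampus (SD, n = 3 each).

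Hspa14 and Dnajc2 encode the Hsp70 and the J protein of the ribosome-associated complex, which meets new chains as they leave the ribosome, and they differed in opposite directions. Hspa14 read 160, 158 and 105 in the WT cerebella, against 63.1, 71.4 and 43.4 in the WT cortices and 55.6, 73.1 and 67.2 in the WT hippocampi. It was 2.39-fold higher in WT cerebellum than in WT cortex (adjusted p = 0.000312) and 2.14-fold higher than in WT hippocampus (adjusted p = 0.00114). Dnajc2 was lower in WT cerebellum on both of its probe sets. On 1 of them (101890_f_at) the signal was 86.5, 103 and 83.1 in the WT cerebella, against 163, 178 and 158 in the WT cortices and 120, 127 and 135 in the WT hippocampi. On the other (104738_at) it was 111, 139 and 100 in the WT cerebella, against 156, 199 and 219 in the WT cortices and 197, 210 and 191 in the WT hippocampi. The log2 differences for WT cerebellum minus WT cortex were -0.87 ± 0.13 (adjusted p = 8.08e-05) and -0.71 ± 0.14 (adjusted p = 0.00106). The same opposite pattern was read in the KO, where cerebellum minus cortex was 1.01 for Hspa14 and -0.73 and -0.69 for the Dnajc2 probe sets on the log2 scale.

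Of the J proteins, Dnajb2, a form enriched in neurons, was highest in WT cerebellum, at 335, 351 and 282, against 212, 288 and 224 in the WT cortices and 205, 190 and 170 in the WT hippocampi. It was 1.71-fold higher than in WT hippocampus (log2 difference 0.77 ± 0.12; adjusted p = 0.000221), with no overlap, and 1.34-fold higher than in WT cortex (adjusted p = 0.013), with values that overlapped. Dnajc21, which takes part in making ribosomes, was lowest in WT cerebellum at 32.9, 31.3 and 22.9, against 66.1, 79.7 and 52.3 in the WT cortices and 44.1, 36.0 and 38.7 in the WT hippocampi. It was 2.27-fold lower than in WT cortex (adjusted p = 0.000328), while its difference from WT hippocampus did not pass (adjusted p = 0.0972). Dnaja1, a farnesylated partner of Hsp70, averaged 1070 ± 127 in WT cerebellum, 1598 ± 65.0 in WT cortex and 1383 ± 266 in WT hippocampus (SD, n = 3 each). Its log2 difference was -0.58 ± 0.11 for WT cerebellum minus WT cortex (adjusted p = 0.000913). Dnajc4 was higher in WT cerebellum than in both other regions, by 0.41 ± 0.13 from WT cortex (adjusted p = 0.019) and 0.72 ± 0.13 from WT hippocampus (adjusted p = 0.000541).

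Hsp90aa1, the inducible cytosolic Hsp90, was lower in both other WT regions than in WT cortex. Its probe set 95282_at read 2812, 2357 and 2164 in the WT cerebella, 2652, 3292 and 2951 in the WT hippocampi and 4141, 4579 and 3246 in the WT cortices. Neighbouring regions in this order overlapped, and cerebellum and cortex did not. WT cerebellum was 1.63-fold lower than WT cortex (log2 difference -0.70 ± 0.12; adjusted p = 0.000406), and WT hippocampus was 1.34-fold lower than WT cortex (adjusted p = 0.0343). WT cerebellum minus WT hippocampus was -0.28 ± 0.12 and did not pass (adjusted p = 0.0952). Hspbp1, an exchange factor for Hsp70, read 261, 278 and 254 in the WT cerebella, against 388, 348 and 337 in the WT cortices and 347, 361 and 363 in the WT hippocampi. Its cerebellar values lay under all others (log2 difference -0.43 ± 0.10 from WT cortex; adjusted p = 0.00255).

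The CCT subunits, which are built into 1 complex, did not move together over the WT regions. Cct5 passed as lower in WT cortex than in both other regions on 1 of its 2 kept probe sets, 93295_at. It read 1134, 1022 and 820 in the WT cerebella and 933, 938 and 1000 in the WT hippocampi, against 658, 695 and 711 in the WT cortices. WT cerebellum minus WT cortex was 0.52 ± 0.10 (adjusted p = 0.00113), and WT hippocampus minus WT cortex was 0.48 ± 0.10 (adjusted p = 0.0072). The other Cct5 probe set, 161514_at, had the same direction against WT cortex but passed in none of the 3 regional contrasts. It gave 0.24 ± 0.18 for WT cerebellum minus WT cortex (adjusted p = 0.311) and 0.53 ± 0.18 for WT hippocampus minus WT cortex (adjusted p = 0.0679). Cct7 went the other way, with -0.34 ± 0.09 for WT cerebellum minus WT cortex (adjusted p = 0.00857). For Cct3 the probe sets disagreed: 98446_s_at was higher in WT cerebellum than in WT cortex, by 0.64 ± 0.11 (adjusted p = 0.000328), 98153_at did not pass (0.24; adjusted p = 0.116), and 161238_f_at was lower, by -0.48 ± 0.18 (adjusted p = 0.045). The suffixes s and f are the array maker's marks for probes that other transcripts can share. Cct2, Cct4, Cct6a, Cct6b, Cct8 and Tcp1 passed in none of the 3 regional contrasts.

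**Figure D1:**
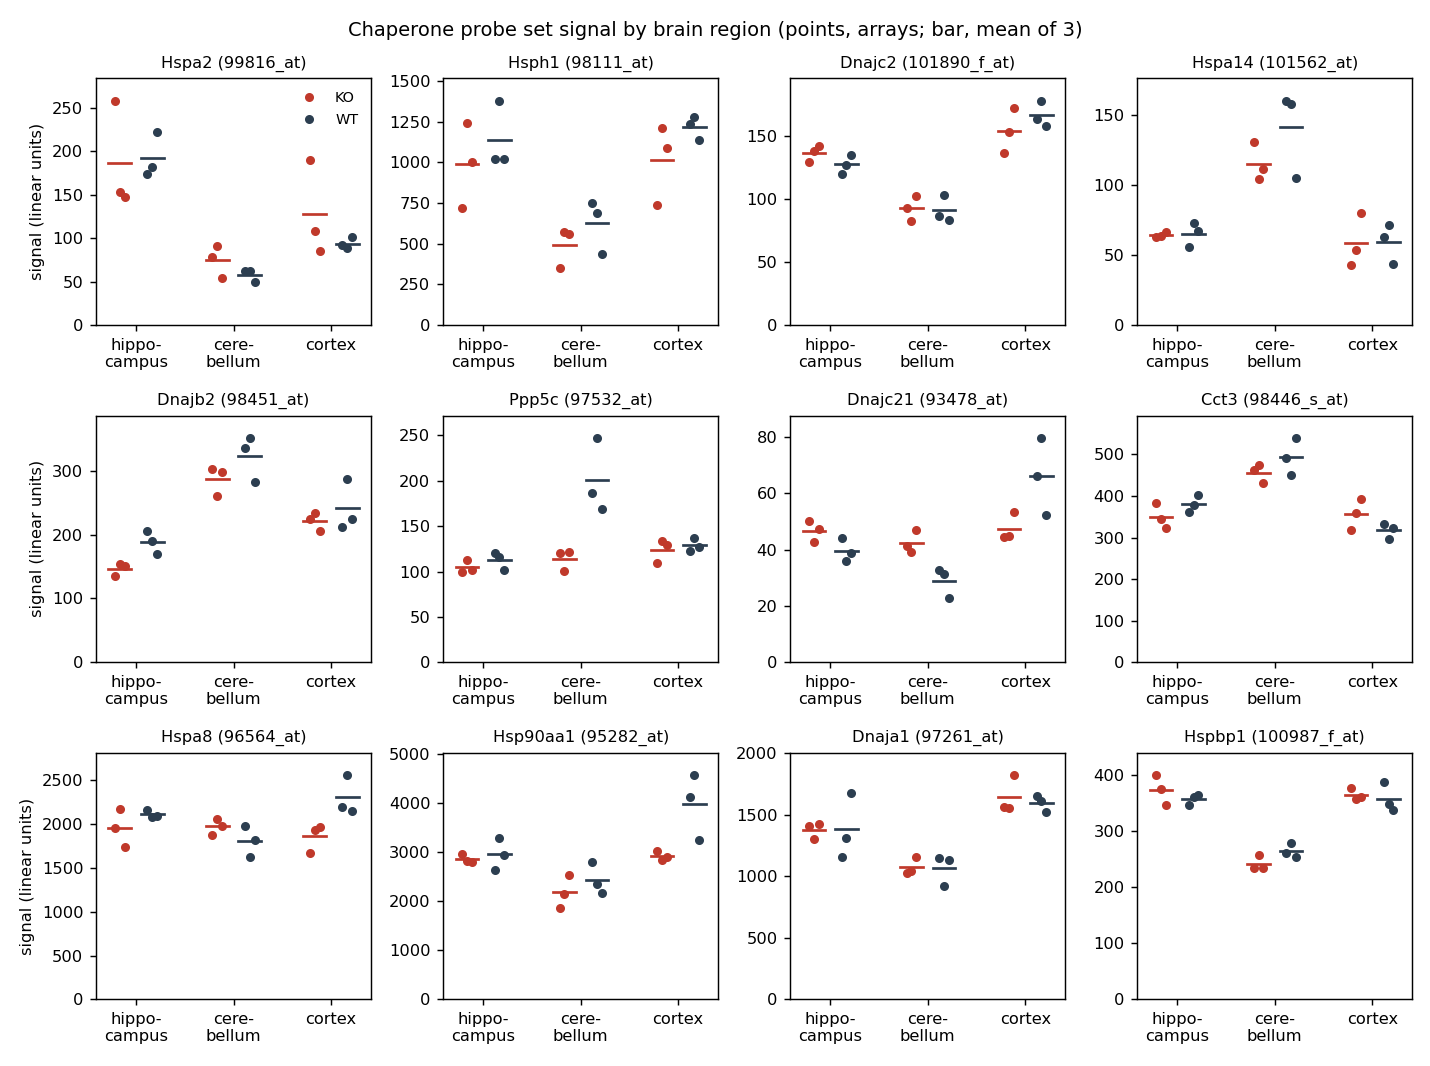
Signal (linear units, each vertical axis from 0) of 12 chaperone probe sets in hippocampus, cerebellum and cortex, with KO left of WT. Points are arrays and bars are means of 3; among the WT means, those of Hspa14, Dnajb2 and Cct3 on the probe sets drawn were highest in cerebellum, and those of Hsph1, Dnajc2 and Hspbp1 lowest there. Another Cct3 probe set, 161238_f_at, not drawn, was lower in WT cerebellum than in WT cortex.

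The regional differences seen in the WT were read again in the KO arrays. The KO signals did not enter the WT differences themselves, but the KO arrays shared the fit that gave their adjusted p. Without KO animal 3389, the count of all probe sets that passed over the WT regions fell from 3901 to 3599. The KO directions are therefore not fully independent of the choice of these differences. Of the 28 member probe sets that differed between WT cerebellum and WT cortex, 24 had the same direction in the KO, beside 3447 of 3620 over all probe sets. The exceptions were Hspa8, Hspd1, Ppp5c and 1 probe set of Dnajc8. For Ppp5c, the log2 difference for cerebellum minus cortex was -0.12 in the KO and 0.62 in the WT. For Hspa8 it was 0.09 in the KO and -0.35 in the WT. Between cerebellum and hippocampus 14 of 15 kept their direction (2531 of 2607 over all), with Dnajb6 as the exception, and between hippocampus and cortex 7 of 7 (1143 of 1207 over all). These exceptions involve the same WT arrays as the KO minus WT values below.

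Between KO and WT, no chaperone gene passed the test in any region. The count past an adjusted p of 0.05 was 0 of 69 members in hippocampus, cerebellum, cortex and the mean of the 3 regions, and 0 of 69 for the genotype by region interaction. Over all 8370 probe sets, the shares that passed were 0.119% for hippocampus, 0.0358% for cerebellum, 0.287% for cortex, 0.179% for the mean and 0.0478% for the interaction, so that a member count of 0 lies near the background. For 1 value in 3 animals of each genotype, the smallest p of an exact permutation test is 0.1. The median log2 difference (KO minus WT) of the members was -0.01 for hippocampus, 0.02 for cerebellum, -0.04 for cortex and -0.02 for the mean, beside 0.02, 0.03, 0.00 and 0.02 over all probe sets. Without WT animal 3396 the hippocampal median was 0.0134 and the cerebellar one -0.00474, and without KO animal 3363 the cortical one was 0.00759, each on the other side of 0. Differences ranged from -1.43 to 0.54 in hippocampus, from -1.84 to 1.14 in cerebellum and from -0.71 to 0.71 in cortex.

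**Figure D2:**
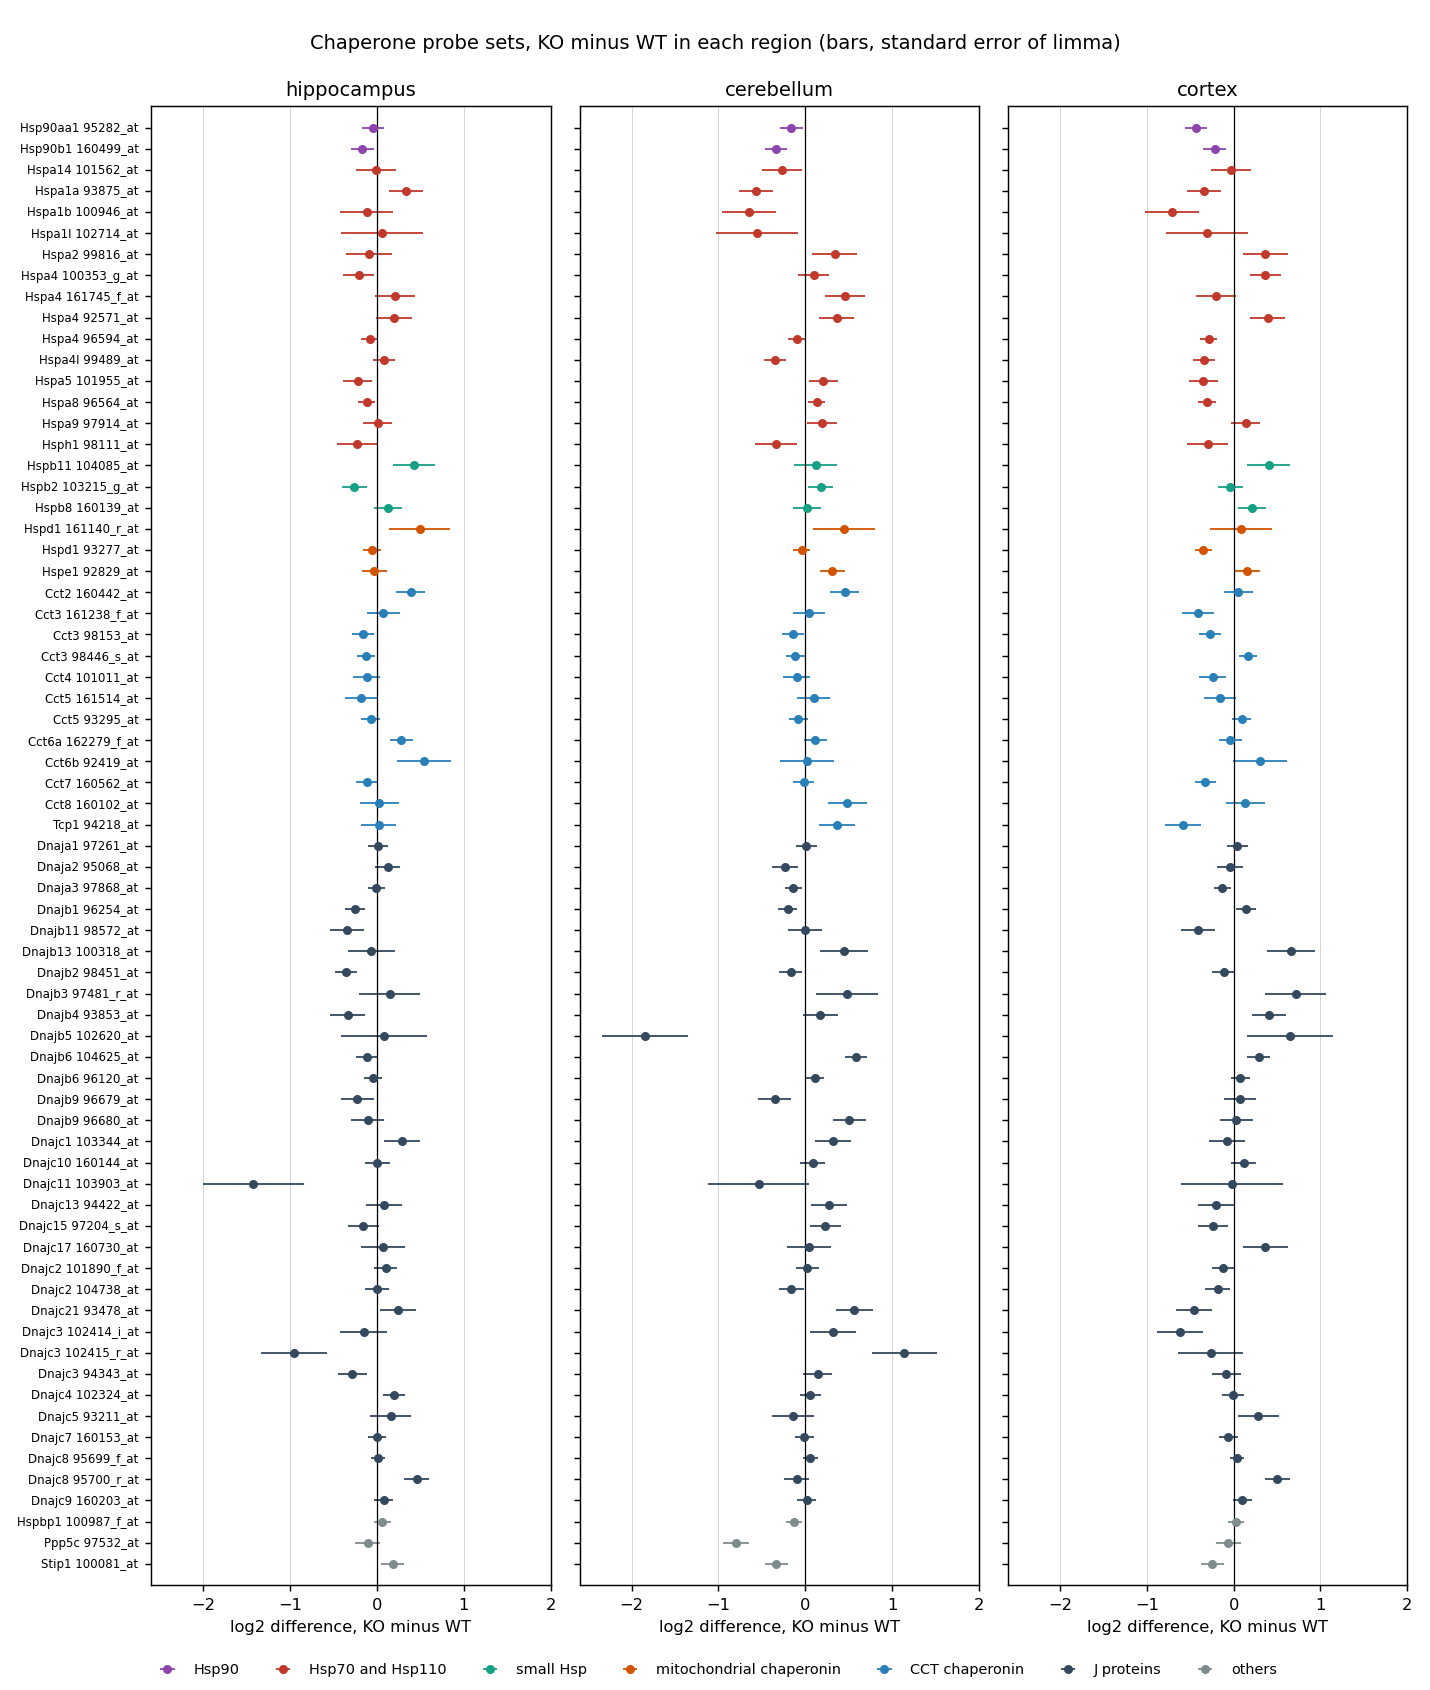
Log2 difference in signal, KO minus WT, of the 69 kept chaperone probe sets in hippocampus, cerebellum and cortex, coloured by family, with limma's standard error as bars. No probe set passed the test; most points lie within 0.5 of 0, and the 3 farthest are Dnajb5 in cerebellum, Dnajc11 in hippocampus and Dnajc3 102415_r_at in cerebellum.

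At an unadjusted p under 0.05 the members were counted as a description. In hippocampus 2 were higher in the KO (2.90%; background 4.55%) and 4 lower (5.80%; background 3.86%). In cerebellum 7 were higher (10.1%; background 6.33%) and 6 lower (8.70%; background 5.77%). In cortex 3 were higher (4.35%; background 5.08%) and 13 lower (18.8%; background 5.17%). In the mean of the regions 5 were higher (7.25%; background 5.28%) and 7 lower (10.1%; background 4.87%). For the interaction 14 had such a p (20.3%; background 10.7%).

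In cortex, the 13 lower probe sets belonged to 12 genes: Hsp90aa1, Hspa8, Hspa4, Hspa4l, Hspa1b, Hspd1, Tcp1, Cct3, Cct7, Dnajb11, Dnajc3 and Dnajc21. None passed once adjusted. Hsp90aa1 read 3031, 2839 and 2912 in the KO cortices, against 4141, 4579 and 3246 in the WT cortices. The KO values were close to each other and all lay under the WT values, which spread widely. The log2 difference was -0.43 ± 0.13 (adjusted p = 0.231). It was -0.04 ± 0.13 in hippocampus and -0.16 ± 0.13 in cerebellum, where the groups overlapped.

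Hspd1, the mitochondrial Hsp60, read 1136, 1210 and 1248 in the KO cortices, against 1475, 1618 and 1486 in the WT cortices, on probe set 93277_at. The groups did not overlap, and the log2 difference was -0.35 ± 0.10 (adjusted p = 0.209). A second, dimmer Hspd1 probe set (161140_r_at) averaged 68.2 ± 17.7 in KO cortex and 66.2 ± 26.8 in WT cortex (SD, n = 3 each). Hspe1, its partner Hsp10, which shares the promoter printed above, read 395, 408 and 567 in the KO cortices, against 328, 443 and 454 in the WT cortices, and these overlapped. In cerebellum Hspe1 read 554, 582 and 693 in the KO, against 531, 444 and 497 in the WT, which did not overlap, while Hspd1 93277_at overlapped there. The cerebellar log2 difference of Hspe1 was 0.31 ± 0.14 and did not pass (adjusted p = 0.397).

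Hspa8 read 1670, 1936 and 1969 in the KO cortices, against 2200, 2558 and 2154 in the WT cortices, a log2 difference of -0.31 ± 0.10 (adjusted p = 0.269). Hspa4, an Hsp110 relative that exchanges nucleotide on Hsp70, read 834, 991 and 1054 in the KO cortices, against 1211, 1147 and 1137 in the WT cortices, on probe set 96594_at (log2 difference -0.29 ± 0.10; adjusted p = 0.291). KO and WT were apart for both of these probe sets in cortex and overlapped in the other regions. The 3 other kept Hspa4 probe sets did not follow it. In cortex the KO values lay above all WT values on 100353_g_at (log2 difference 0.37 ± 0.18; adjusted p = 0.498) and on 92571_at (0.39 ± 0.20; adjusted p = 0.528), and the groups overlapped on 161745_f_at (-0.20 ± 0.23). In cerebellum KO and WT were apart on 161745_f_at, with the KO values above the WT values (0.46 ± 0.23; adjusted p = 0.438). Hspa4l, of the same family, read 233, 218 and 258 in the KO cortices, against 278, 290 and 333 in the WT cortices (log2 difference -0.34 ± 0.13; adjusted p = 0.321). It was as far apart in cerebellum, at 239, 232 and 228 in the KO, against 299, 343 and 257 in the WT (log2 difference -0.35 ± 0.13; adjusted p = 0.261).

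The Hsp70 and Hsp110 family as a whole had a median log2 difference of -0.29 in cortex, with 10 of 14 probe sets below 0, beside 0.00 and 4140 of 8370 over all probe sets. It was -0.28 after median scaling and -0.26 after quantile normalization of the arrays, with 10 of 14 below 0 in both. In hippocampus the family's median was -0.05 and in cerebellum 0.00. Both kept Hsp90 probe sets were below 0 in all 3 regions under the deposited scaling and both of these alternatives. Without WT animal 3406, Hsp90aa1 in hippocampus changed sign, from -0.04 to 0.03. The J proteins, with 16 of 32 below 0, had a median of 0.01 in cortex. Oligodendrocyte markers were lower in the same KO cortices, and the ratio of 3′ to 5′ signal of the Gapdh control probe sets was 0.804 ± 0.00773 in KO cortex and 0.903 ± 0.0202 in WT cortex (SD, n = 3 each). The actin ratio was 1.77 ± 0.124 in KO cortex and 1.77 ± 0.140 in WT cortex. The part of either in the cortical values was not tested.

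Tcp1 and Cct7, subunits of CCT, were also among the cortical genes of lowest p. Tcp1, the first subunit of the complex to be named, read 110, 53.7 and 91.3 in the KO cortices, against 120, 125 and 120 in the WT cortices (log2 difference -0.58 ± 0.20; adjusted p = 0.297). The KO spread came largely from animal 3389. Cct7 read 540, 557 and 603 in the KO cortices, against 879, 634 and 642 in the WT cortices (log2 difference -0.33 ± 0.12; adjusted p = 0.332). Cct2, by contrast, read 150, 206 and 162 in the KO cerebella, against 146, 103 and 129 in the WT cerebella, and 216, 179 and 154 in the KO hippocampi, against 131, 132 and 153 in the WT hippocampi. All KO values lay above all WT values in both regions, by little at the nearest ones (adjusted p = 0.574 in hippocampus and 0.271 in cerebellum). Over the 12 kept CCT probe sets 7 were below 0 in cortex, 5 in cerebellum and 6 in hippocampus.

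In cerebellum the lowest p belonged to Ppp5c, a protein phosphatase that docks on Hsp90. It read 120, 100 and 122 in the KO cerebella, against 187, 247 and 169 in the WT cerebella. All KO values lay under all WT values, and the KO cerebella were close to the hippocampi and cortices, which ran from 99.6 to 133 in the KO and from 102 to 137 in the WT. The log2 difference was -0.80 ± 0.15 in cerebellum (adjusted p = 0.0618), -0.11 ± 0.15 in hippocampus and -0.06 ± 0.15 in cortex. The interaction had an adjusted p of 0.276. Ppp5c passed in cerebellum without WT animal 3405 (adjusted p = 0.0320) or 3396 (0.0371), and without WT animal 3406 its adjusted p was 0.397. Stip1, which links Hsp70 to Hsp90, read 329, 247 and 276 in the KO cerebella, against 366, 365 and 339 in the WT cerebella, with no overlap. Its difference did not pass once adjusted, and the share of all probe sets with such gaps was not counted.

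Dnajb6, a J protein that holds back aggregation of polyglutamine proteins, read 241, 229 and 243 in the KO cerebella, against 184, 163 and 133 in the WT cerebella, on probe set 104625_at. The groups did not overlap, and the log2 difference was 0.58 ± 0.13 (adjusted p = 0.111). Without WT animal 3405 it passed (adjusted p = 0.0279). The other Dnajb6 probe set gave 0.11 there. In cortex 104625_at read 246, 255 and 242 in the KO, against 198, 181 and 231 in the WT (log2 difference 0.29 ± 0.13; adjusted p = 0.461). In hippocampus the groups overlapped (log2 difference -0.12 ± 0.13).

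Dnajb5, a J protein related to Dnajb1, had the largest cerebellar difference of the members. It read 9.55, 13.1 and 15.4 in the KO cerebella, against 39.5, 48.1 and 46.8 in the WT cerebella, so that the KO values lay close to the floor of 9.50. The log2 difference was -1.84 ± 0.50 (adjusted p = 0.145), and without WT animal 3396 it passed (adjusted p = 0.0325). With 16 added in place of the floor the log2 difference was -1.09. In hippocampus Dnajb5 read 113, 167 and 94.8 in the KO, against 153, 155 and 63.2 in the WT, and in cortex 85.7, 139 and 69.7 in the KO, against 121, 89.4 and 19.7 in the WT. Both of these overlapped.

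Dnajc3, an ER protein that restrains the kinase PERK and carries the ER stress element printed above, was read by 3 kept probe sets. On 102415_r_at it read 55.0, 41.6 and 62.0 in the KO cerebella, against 47.8, 12.8 and 21.6 in the WT cerebella, and 10.4, 13.2 and 14.6 in the KO hippocampi, against 21.6, 24.2 and 27.9 in the WT hippocampi. KO and WT overlapped in cerebellum and not in hippocampus. The log2 difference was 1.14 ± 0.38 in cerebellum (adjusted p = 0.232) and -0.96 ± 0.38 in hippocampus (adjusted p = 0.523), with an adjusted p of 0.289 for the interaction. Without WT animal 3405 the cerebellar value passed (adjusted p = 0.0394). Over the 3 probe sets the log2 differences ran from 0.14 to 1.14 in cerebellum and from -0.96 to -0.15 in hippocampus.

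Hspa1a, the stress-induced Hsp70, read 84.6, 96.7 and 80.9 in the KO cerebella, against 154, 117 and 120 in the WT cerebella (log2 difference -0.57 ± 0.20; adjusted p = 0.251). In cortex it read 89.2, 61.8 and 84.2 in the KO, against 99.9, 98.9 and 96.3 in the WT, and in hippocampus the groups overlapped. Hspa1b, its near-identical copy, read 60.1, 56.2 and 50.4 in the KO cerebella, against 79.1, 140 and 59.4 in the WT cerebella, which overlapped. Probes for such copies can pick up each other's transcripts, so the 2 genes cannot be told apart with certainty. Dnajc21 read 41.5, 39.1 and 47.0 in the KO cerebella, against 32.9, 31.3 and 22.9 in the WT cerebella (log2 difference 0.56 ± 0.21; adjusted p = 0.273), and its cortical difference was -0.46 ± 0.21. Choroid plexus markers summed to 682 to 1947 in KO cerebella and 273 to 1795 in WT cerebella, with the log2 differences of 4 of 4 probe sets above 0 and none passing. The neuronal activity markers summed to 826 to 3107 in KO cerebella and 1119 to 1383 in WT cerebella. Their median sum was lower in KO cerebella, at 1028, than in WT cerebella, at 1147. The log2 differences of 6 of 7 activity probe sets were above 0, with a median of 0.59 and none passing. The part of either list in the cerebellar values was not tested.

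In hippocampus and in cortex alike, the lowest p was that of Dnajc8, a J protein linked to splicing, on probe set 95700_r_at. It read 556, 520 and 507 in the KO hippocampi, against 414, 356 and 384 in the WT hippocampi, and 487, 637 and 441 in the KO cortices, against 378, 342 and 370 in the WT cortices. Neither region overlapped. The log2 difference was 0.46 ± 0.14 in hippocampus (adjusted p = 0.336), 0.50 ± 0.14 in cortex (adjusted p = 0.2) and -0.10 ± 0.14 in cerebellum. The other Dnajc8 probe set, 95699_f_at, gave 0.01 in hippocampus and 0.04 in cortex. The members whose deviations from the group means were most like those of 95700_r_at over the 18 arrays were Dnajb13 (Pearson r = 0.588), Dnajb3 (0.541) and Hspd1 161140_r_at (0.499), which share arrays and animals with it.

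The other hippocampal genes of low p differed in direction. Dnajb2 read 135, 153 and 151 in the KO hippocampi, against 205, 190 and 170 in the WT hippocampi (log2 difference -0.36 ± 0.13; adjusted p = 0.466). Dnajc11, a protein of the mitochondrial membranes, read 28.5, 24.6 and 19.7 in the KO hippocampi, against 83.0, 76.5 and 42.3 in the WT hippocampi (log2 difference -1.43 ± 0.58; adjusted p = 0.544). Both were lower in all 3 KO animals than in any WT animal, and Dnajc11 varied widely elsewhere: its cortices read 21.4, 27.1 and 95.3 in the KO, against 109, 21.2 and 25.0 in the WT. Dnajb1, the main heat-inducible J protein, read 133, 127 and 155 in the KO hippocampi, against 162, 167 and 163 in the WT hippocampi, and 211, 207 and 227 in the KO cortices, against 190, 194 and 199 in the WT cortices. It lay below WT in the first region and above it in the second, with adjusted p of 0.575 and 0.721. Dnajb1 also lay below WT in cerebellum, by little at the nearest values. It read 127.3, 128.4 and 128.7 in the KO cerebella, against 156, 160 and 128.8 in the WT cerebella. The log2 difference there was -0.20 ± 0.11 (adjusted p = 0.492). Cct6a read 347, 326 and 291 in the KO hippocampi, against 262, 265 and 264 in the WT hippocampi, and the small heat shock protein Hspb2 read 118, 118 and 108 in the KO, against 127, 141 and 143 in the WT (adjusted p of 0.598 and 0.664).

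**Figure D3:**
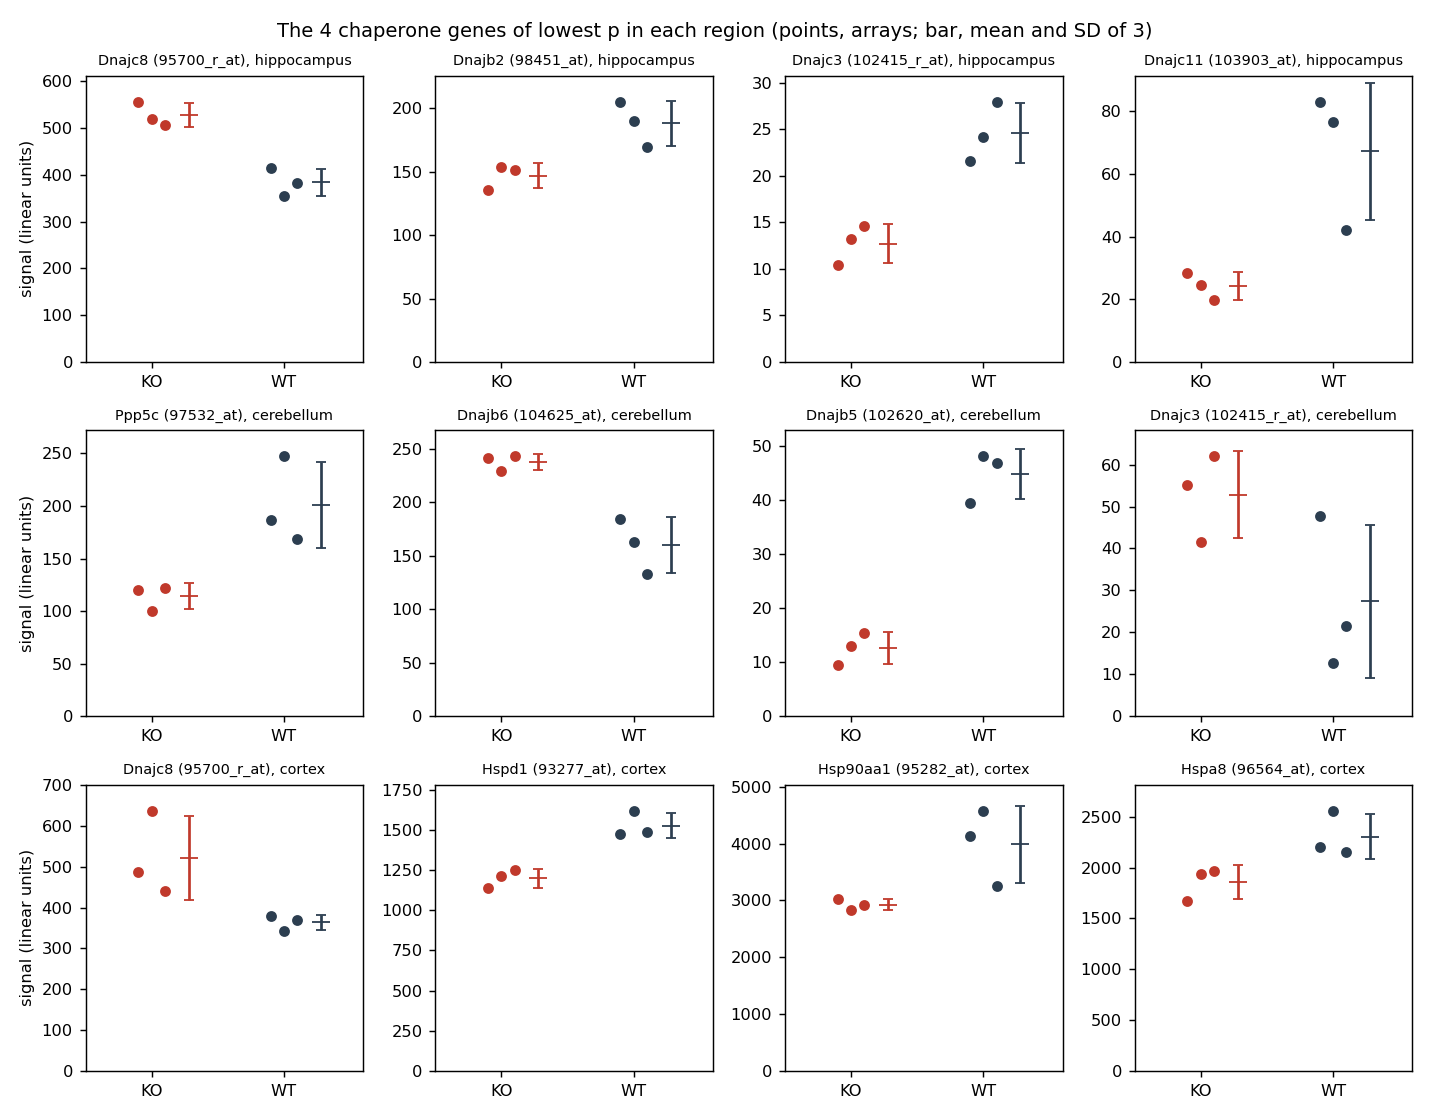
Signal (linear units, from 0) of the 4 chaperone genes of lowest p in hippocampus, cerebellum and cortex (rows), with KO left of WT; points are arrays, and bars are the mean and SD of 3. The panels were chosen for their low p, so gaps between KO and WT in them are no separate result. The share of all probe sets with such gaps was not counted. KO and WT overlapped for Dnajc3 in cerebellum.

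Over the mean of the 3 regions, with 1 value per animal, Dnajb6 104625_at and Ppp5c had the lowest p. The geometric mean of the Dnajb6 signal was 234, 242 and 229 in the KO animals, against 199, 199 and 194 in the WT animals (log2 difference 0.25 ± 0.08; adjusted p = 0.347). That of Ppp5c was 110, 115 and 117 in the KO animals, against 140, 158 and 130 in the WT animals (log2 difference -0.32 ± 0.10; adjusted p = 0.359). Neither overlapped. Dnajc8 95700_r_at (0.29 ± 0.09), Cct2 (0.30 ± 0.11) and Hspa4 92571_at (0.32 ± 0.11) were also above 0, and Hsp90aa1 (-0.21 ± 0.07), Hspa4l (-0.20 ± 0.08) and Hsp90b1 (-0.24 ± 0.10) below 0. Their adjusted p ran from 0.370 for Dnajc8 to 0.434 for Hsp90b1. The brightest Hspa4 probe set, 96594_at, lay below 0 in the mean (-0.16 ± 0.07), while 100353_g_at (0.09 ± 0.12) and 161745_f_at (0.16 ± 0.17) lay above 0. Hsp90b1, the Hsp90 of the ER, read 615, 791 and 774 in the KO cerebella, against 952, 1028 and 776 in the WT cerebella, and overlapped in every region. Hspa5, the ER Hsp70, whose promoter is printed above, averaged 1014 ± 120 in KO cortex and 1291 ± 124 in WT cortex, and 1274 ± 176 in KO cerebellum and 1127 ± 316 in WT cerebellum (SD, n = 3 each). Hspa9, the mitochondrial Hsp70, averaged 503 ± 75.1 in KO cortex and 455 ± 40.3 in WT cortex.

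Of the 56 kept genes, 9 had several kept probe sets, and these differed among themselves. Probe sets of the same gene had KO minus WT differences of both signs for 3 of the 9 genes in hippocampus, 7 in cerebellum and 4 in cortex. Hspa4 and Cct3 did so in all 3 regions, as did Hspd1. Dnajc3 and Dnajb6 had 1 sign in each region. For Dnajb9, an ER J protein, the 2 probe sets gave -0.35 and 0.51 in cerebellum.

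**Figure D4:**
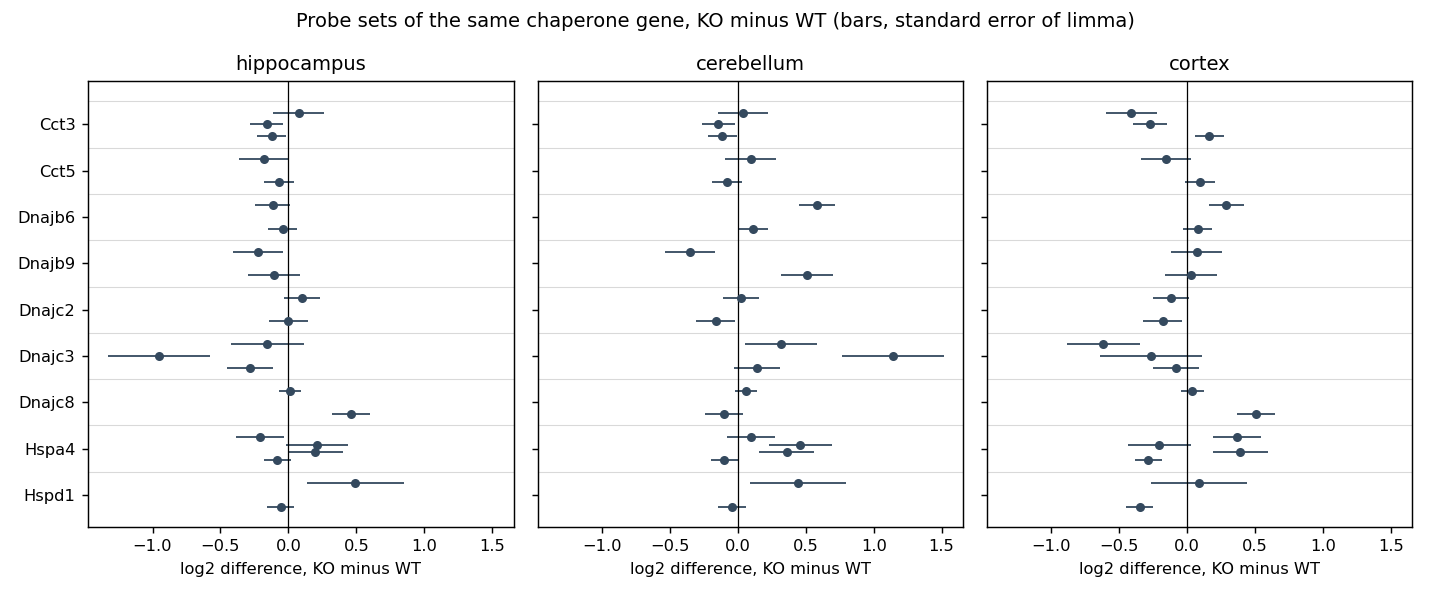
Log2 difference in signal, KO minus WT, for each kept probe set (points, with limma's standard error as bars) of the 9 chaperone genes with several, in hippocampus, cerebellum and cortex. In cerebellum 7 of the 9 genes have probe sets on both sides of 0.

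The genes that work beside these chaperones were read from 5 lists, and no probe set of any list passed in any region or in the mean. The co-factors of Hsp90 and Hsp70 had 29 kept probe sets, with a median log2 difference of -0.07 in hippocampus, -0.05 in cerebellum and 0.04 in cortex. Bag6, which guards membrane proteins before insertion, had the lowest p of that list in cerebellum (93922_g_at, -0.69 ± 0.15; adjusted p = 0.0719), but another of its probe sets (101854_r_at) gave 0.61 ± 0.23 there. Stub1, the ubiquitin ligase that sorts chaperone clients for destruction, had the lowest p in hippocampus (-0.30 ± 0.10; adjusted p = 0.451). The 8 prefoldin and tubulin folding probe sets, which feed or follow CCT, had medians of -0.03, 0.21 and -0.07 in hippocampus, cerebellum and cortex, with Pdcl3 leading in cerebellum (0.44 ± 0.12; adjusted p = 0.141).

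The 24 ER folding probe sets had medians of -0.07, 0.08 and -0.03 in hippocampus, cerebellum and cortex. Ddit3, the stress factor CHOP, had the lowest p among them in hippocampus (0.82 ± 0.23; adjusted p = 0.241), and Erp44 in cortex (-0.49 ± 0.18; adjusted p = 0.315). The 10 mitochondrial quality control probe sets had medians of -0.05, 0.05 and 0.08 in the same order, and Phb2, a prohibitin, led in cerebellum (-0.37 ± 0.11; adjusted p = 0.179). The 9 probe sets of other genes induced by heat had medians of -0.01, -0.21 and -0.05 in that order. Hmox1, which breaks down haem and is a general marker of stress, had the lowest p of them in hippocampus and cortex and lay at 0.61 ± 0.16 in hippocampus (adjusted p = 0.196), 0.29 ± 0.16 in cerebellum (adjusted p = 0.486) and 0.60 ± 0.16 in cortex (adjusted p = 0.156). Jun lay at -0.62 ± 0.15 in cerebellum (adjusted p = 0.141). These medians stand beside 0.02, 0.03 and 0.00 over all probe sets in hippocampus, cerebellum and cortex.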

How the data were processed

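Total RNA of 3 brain regions from 3 Aldh5a1-/- and 3 WT mice was measured on 18 arrays. The deposited table holds 1 intensity per probe set and array on a linear scale, and its arrays share a 2% trimmed mean of 150.07 to 150.08. The sources used here do not name the software that the authors used. Replicates are separate animals per the labels, and their number limits the precision; median signal per array was 53.5 to 64.8.

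Of 12488 probe sets, the 66 controls were removed. The 20th percentile of all values that were not controls, 9.50, served as a floor for lower values before the log2 step. Probe sets above their array's 40th percentile on at least 3 arrays were kept. The platform annotation named 10855 probe sets with 1 symbol, 396 with several and 1237 with none, and 82 of 82 member probe sets were found in the RefSeq gene table. KO was compared with WT in limma 3.58.1 (R 4.3.3), with an intensity trend, as contrasts of the group means. The mean of the regions used 1 log2 mean per animal. The interaction and the WT regions were fitted with a term for each animal. Adjusted p are two-sided, by Benjamini-Hochberg over the 8370 kept probe sets. The fits were tested on simulated data.

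Animal numbers in the labels pair the arrays. Deviations of arrays from 1 animal correlated weakly (median 0.135, lowest -0.0844), against -0.0181 for arrays from different animals. Genes given with each array's value are, by rule, the 8 member genes of lowest p in each KO and WT comparison and over the WT regions, and the brightest of each family. Hspe1, Stip1, Hspa1b, Hspa5, Hspa9, Dnajb9, Dnajc4 and Cct7 over the WT regions were chosen after their values were seen. Members and lists were chosen with earlier results of these data known. Alternatives were median scaling, quantile normalization, 16 added to every value, no floor, no filter, a filter at the 60th percentile, a prior without the trend, leaving out each animal, other treatments of the animal term, and fits on the arrays of 1 region.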

Additional observations from a re-analysis of the deposited data

How the results depend on the processing

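The count of 0 member probe sets past the threshold stayed 0 under the alternatives run in hippocampus, cortex, the mean of the regions and the interaction. In cerebellum it was 1 after median scaling (Ppp5c, adjusted p = 0.025) and 1 with the 60th percentile filter (Ppp5c, adjusted p = 0.0413), and it ran from 0 to 3 with 1 animal left out: 3 without WT 3405 and 2 without WT 3396. The count for the WT regions ran from 15 to 26 with 1 animal left out. After median scaling, the median log2 difference of the members was -0.0929 in hippocampus, -0.0503 in cerebellum and -0.0735 in the mean, and over all probe sets it was -0.0603, -0.0398 and -0.0293. With the 60th percentile filter it was -0.0421 in hippocampus and -0.0501 in the mean. With 1 animal left out it ran from -0.0356 to 0.0134 in hippocampus, from -0.00474 to 0.0678 in cerebellum, from -0.0964 to 0.00759 in cortex and from -0.0581 to -0.00463 in the mean. With the animal as a random replicate block, 0 members passed in each region; with no replicate block, 0 passed in the interaction and 22 for the WT regions. For the 8 genes of lowest p in each KO comparison and over the WT regions, no difference changed sign under these alternatives: 564 values kept their side of the threshold and 7 passed it that had not. These genes were chosen for their low p in the same data, so their stable sign is no separate support. Smaller differences did change sign. Of the 69 kept probe sets, 25 in hippocampus, 24 in cerebellum, 24 in cortex and 17 in the mean did so under at least 1 alternative, 15, 9, 1 and 3 of them under median scaling. None of these had passed the test. The largest was Dnajb5 in cortex, 0.65 with all animals and -0.148 without WT 3396. Of the member differences called between WT regions none changed sign, and under at least 1 alternative 17 of 28 (cerebellum minus cortex), 6 of 15 (cerebellum minus hippocampus) and 5 of 7 (hippocampus minus cortex) no longer passed. The 60th percentile filter left no value for Dnajc21, Dnajc3 102415_r_at and Hspa4 92571_at. With 1 probe set per gene, the brightest, an alternative chosen after seeing the data, the median log2 difference of the members was -0.00359 in hippocampus, 0.0131 in cerebellum, -0.0399 in cortex and -0.0332 in the mean. The causes were not tested. Signals close to the floor, such as Dnajb5 in KO cerebellum, limit the size of their differences.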
